A study of Mus musculus with 6 samples.

Results

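Mitochondrial ribosomal protein genes are the nuclear genes for the protein subunits of the ribosome inside mitochondria. They were taken from the table of liver expression by name: every row whose symbol is Mrpl (large subunit) or Mrps (small subunit) followed by a number and an optional letter, with 4 rows marked -ps (pseudogenes) left out. This gave 78 of 25102 genes, 49 named for the large and 29 for the small subunit, spread over 17 chromosomes with 11 of them on chromosome 11 and 8 on chromosome 17. All 78 were above 0 in every library.

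The 6 libraries came from whole-liver poly(A) RNA of male C57BL/6J mice aged 2 weeks at the start, 3 control and 3 treated (DEN+CCl4). The treated mice received diethylnitrosamine (DEN), a liver carcinogen, once intraperitoneally at 1 mg/kg. About 6 weeks later they began carbon tetrachloride (CCl4), which injures hepatocytes, by the same route at 0.2 mL/kg, given 2 times weekly for no longer than 14 weeks. The labels give the controls no injection or vehicle, do not say whether tumour or surrounding liver was sampled, and name no animals behind the replicate numbers, so p-values measure only the spread between these libraries. All 12 hepatocyte markers examined were above 0 in each library, with albumin (Alb) between 7482 and 24459 FPKM.

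Mitochondria translate the few respiratory chain proteins that their own genome encodes on ribosomes of their own. The RNA of these ribosomes comes from mitochondrial DNA, while every protein subunit is made in the cytosol from nuclear genes and imported. Liver is rich in mitochondria, and the subunits are needed for complexes I, III, IV and the ATP synthase. Some subunits descend from bacterial ribosomal proteins and others exist only in mitochondria.

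In DEN+CCl4 liver the mitochondrial ribosomal protein genes read a little lower than in control liver, nearly all in the same direction, and none by enough to pass the test. The median log2 fold change (DEN+CCl4 over control, on the log2(FPKM + 1) scale, which understates changes of low genes) was -0.61 for the 73 members that averaged 1 FPKM or more, against -0.27 for all 8528 genes tested. When each library was rescaled by the median of its ratios to the geometric means over the 6 libraries (median-ratio scaling, here called scaled values), the medians were -0.40 and -0.10. One control library also read low for these genes. The groups overlapped for most of them, as for most tested genes. As deposited, treated values lay wholly below the controls for 2.74% of tested members, against 5.35% of all tested genes. They lay wholly above for 0%, against 3.01%. Because the libraries are bulk tissue, fewer cells with these transcripts and less RNA per cell cannot be told apart.

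FPKM (mapped fragments scaled by gene length and by the mapped total of the library) is relative to the library total, and the totals were unequal in makeup. Mitochondrially encoded transcripts and their 7 nuclear copies took 38.1% to 62.1% of the FPKM in the controls, 52.3% and 56.7% in DEN+CCl4 replicates 1 and 2, and 85.0% in DEN+CCl4 replicate 3. The median tested gene read 1.19 FPKM in that library and 3.43 to 4.46 in the other 5, and the scaling factors were 0.419 against 1.096 to 1.46. Levels are given as deposited, and log2 fold changes of members both as deposited and with scaled values. No counts were given, so the depth behind each value is unknown.

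The levels of the 78 genes spanned 44.5-fold. Mean FPKM over the 6 libraries ran from 0.725 for Mrpl32 to 32.3 for Mrpl54, with a median of 5.21. The large subunit genes had a median of 6.32 FPKM and the small subunit genes 3.46. In all, 22 genes averaged at least 10 FPKM and 18 averaged under 2. Low level went with long exon sequence: across the 78 genes, log2 mean FPKM and log2 exon length had a Pearson r of -0.73, a description over genes that share the same libraries, against -0.27 over all tested genes with a length. FPKM is itself scaled by gene length, so the 2 measures are not independent. The length used here joins all annotated exons of a gene. The 5 genes below the filter at 1 FPKM were Mrpl32, Mrpl3, Mrpl19, Mrps22 and Mrps30.

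**Figure D1:**
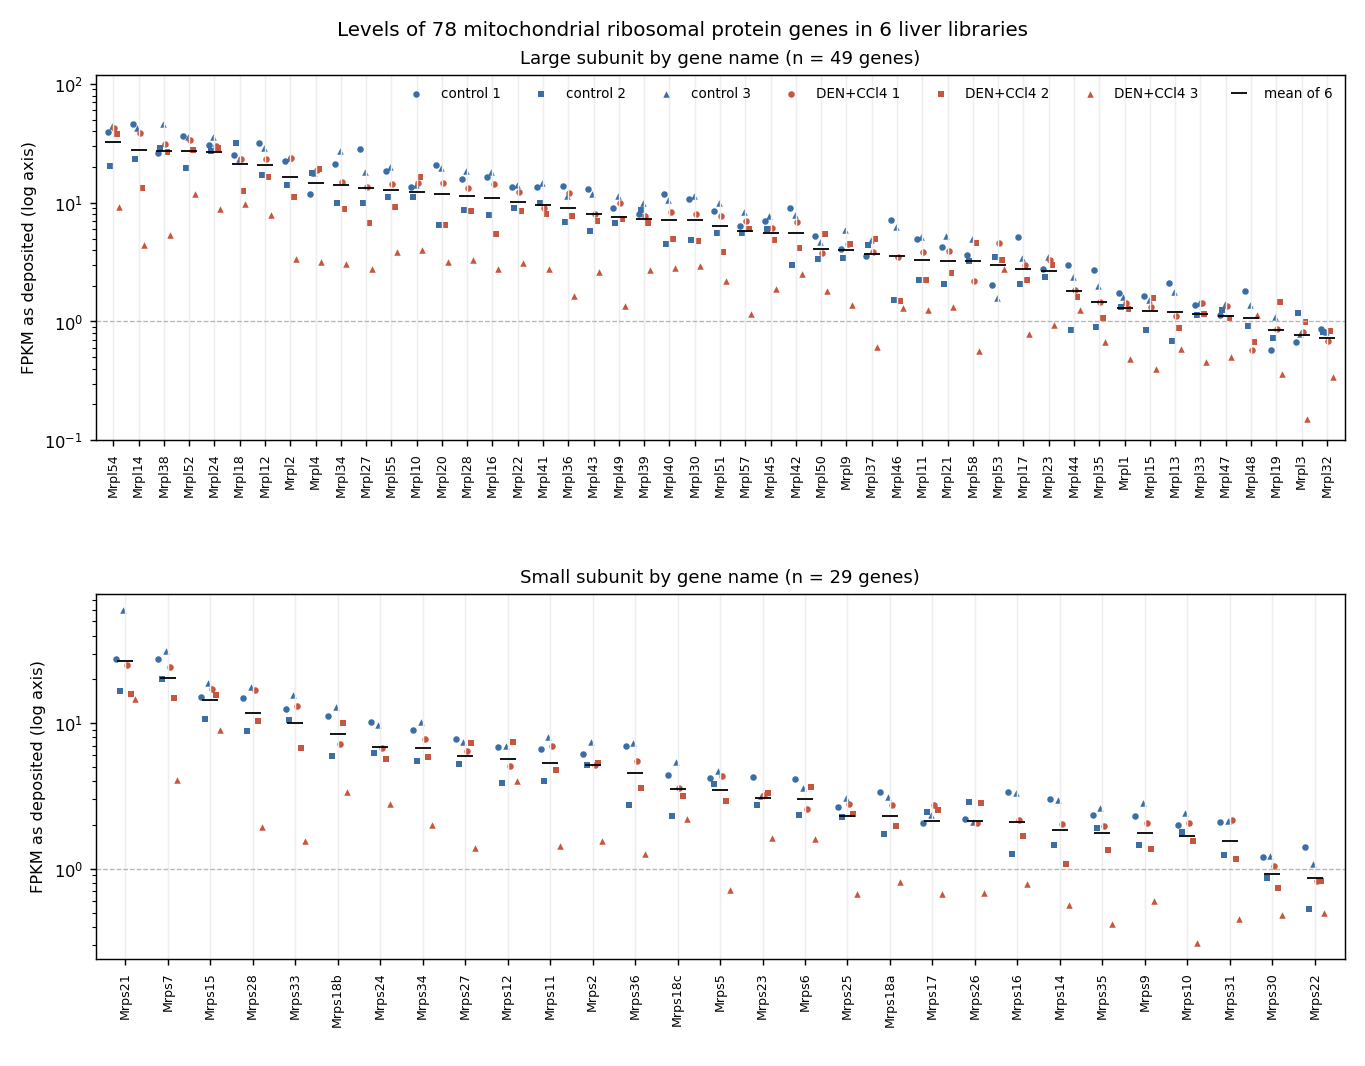
FPKM as deposited (log axis) of each of the 78 genes in the 6 libraries, with the mean of 6 as a black bar, in the large subunit (49 genes, top) and the small subunit (29 genes, bottom), ordered by mean. DEN+CCl4 replicate 3 (red triangles) was the lowest library for 74 of the 78 genes.

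Mrpl54 (chr10:81264713-81266934, GRCm38, minus strand), a subunit found only in mitochondria, had the highest mean of all members and differed little between groups. It read 39.3, 20.4 and 44.0 FPKM in the controls, against 42.6, 38.1 and 9.15 in DEN+CCl4 liver (means 34.6 ± 12.5 and 29.9 ± 18.1, SD, n = 3). Control replicate 2 and DEN+CCl4 replicate 3 were the low libraries and the groups overlapped. Its log2 fold change was -0.39 (SE 0.90, limma adjusted p = 0.996), and -0.10 (SE 0.43) with scaled values. Mrpl38, also without a bacterial counterpart, read 26.4, 28.9 and 46.0 FPKM in the controls, against 31.6, 26.9 and 5.33 in DEN+CCl4 liver. Only the last of these lay apart from the rest as deposited. With scaled values DEN+CCl4 replicate 2 also lay below the controls, at 18.4 against 24.1 to 39.6. The log2 fold change was -0.91 (SE 0.87, limma adjusted p = 0.996), or -0.64 scaled. Among small subunit genes, Mrps21, the counterpart of bacterial S21, had the highest mean, with 27.5, 16.6 and 59.5 FPKM in the controls and 25.2, 15.8 and 14.6 in DEN+CCl4 liver. Control replicate 3 stood more than 30 FPKM above every other library, and the log2 fold change was -0.71 (SE 0.87, limma adjusted p = 0.996), or -0.41 scaled.

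The promoters of these genes were read from a RefSeq table (GRCm38.p6) that gives 250 bases before each transcription start and 50 after it. By symbol, 69 of the 78 genes matched, with 75 promoters. Motifs were searched on both strands: the core bound by nuclear respiratory factor NRF1, the ETS core bound by GABPA, also called NRF2 alpha (CCGGAAG), the YY1 core (AAGATGG) and its longer form, which contains the shorter one, and the GC box (GGGCGG). NRF1, GABPA and YY1 are known regulators of nuclear genes for mitochondrial proteins. The ETS core was present in 34.7% of the member promoters, against 18.8% of the 7813 promoters of tested genes and 8.86% of all 32851. The NRF1 core was in 18.7%, against 13.4% and 6.23%, and both cores together in 4 member promoters. The short YY1 core was in 17.3%, against 7.62% and 6.34%, and the long form in 6.67%, against 1.74% and 0.633%. The GC box was in 52.0%, against 62.04% and 35.7%. Member promoters had a median GC content of 58.7%, close to the 60.3% of tested genes and above the 52.7% of all promoters. A match is a run of letters in this window and not a measured binding site.

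The promoters below show the patterns found, for genes whose values are given in this section. Each runs 5′ to 3′ on the gene's strand from 250 bases before the start to 30 after it, with NRF1, ETS and YY1 cores in capitals. Mrpl14 (chr17:45686099-45686378, plus strand) and Mrpl39 (chr16:84735215-84735494, minus strand) carry an NRF1 core, after and before the start. Mrps21 (chr3:95871485-95871764, minus strand) carries an NRF1 and an ETS core. Mrps18a (chr17:46110754-46111033, plus strand) carries an ETS core and the long YY1 form. Mrps12 (chr7:28741792-28742071, minus strand) carries an ETS core at its start and, near the start of its divergent neighbour Sars2, a YY1 core. Mrpl41 (chr2:24975069-24975348, minus strand) has none of these letters in the window.
Mrpl14: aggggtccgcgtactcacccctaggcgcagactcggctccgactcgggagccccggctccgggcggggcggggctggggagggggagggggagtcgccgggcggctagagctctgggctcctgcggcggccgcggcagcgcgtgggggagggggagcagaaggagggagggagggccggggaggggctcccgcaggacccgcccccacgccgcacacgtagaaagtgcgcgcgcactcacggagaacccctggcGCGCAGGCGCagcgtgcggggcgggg
Mrpl39: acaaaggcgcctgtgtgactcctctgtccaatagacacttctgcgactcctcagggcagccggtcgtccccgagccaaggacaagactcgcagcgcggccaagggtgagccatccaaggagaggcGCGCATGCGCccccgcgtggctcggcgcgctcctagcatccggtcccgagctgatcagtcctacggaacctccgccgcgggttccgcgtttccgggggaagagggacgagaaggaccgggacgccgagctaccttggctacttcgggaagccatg
Mrps21: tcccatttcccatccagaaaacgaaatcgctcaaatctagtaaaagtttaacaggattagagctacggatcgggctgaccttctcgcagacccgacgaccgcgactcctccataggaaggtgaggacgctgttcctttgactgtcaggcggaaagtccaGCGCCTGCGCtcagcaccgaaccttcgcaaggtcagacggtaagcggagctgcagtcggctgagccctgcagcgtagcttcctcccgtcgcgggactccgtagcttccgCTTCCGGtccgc
Mrps18a: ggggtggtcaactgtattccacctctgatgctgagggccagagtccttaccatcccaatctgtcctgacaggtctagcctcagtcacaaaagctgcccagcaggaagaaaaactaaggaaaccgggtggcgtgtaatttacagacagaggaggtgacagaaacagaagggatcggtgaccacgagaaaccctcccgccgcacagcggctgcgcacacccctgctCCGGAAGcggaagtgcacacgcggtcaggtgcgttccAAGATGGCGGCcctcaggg
Mrps12: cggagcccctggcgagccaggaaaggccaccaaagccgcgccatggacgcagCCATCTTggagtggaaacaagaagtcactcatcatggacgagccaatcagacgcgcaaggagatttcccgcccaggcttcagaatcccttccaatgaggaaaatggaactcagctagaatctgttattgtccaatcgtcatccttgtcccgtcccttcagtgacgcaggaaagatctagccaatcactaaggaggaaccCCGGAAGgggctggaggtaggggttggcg
Mrpl41: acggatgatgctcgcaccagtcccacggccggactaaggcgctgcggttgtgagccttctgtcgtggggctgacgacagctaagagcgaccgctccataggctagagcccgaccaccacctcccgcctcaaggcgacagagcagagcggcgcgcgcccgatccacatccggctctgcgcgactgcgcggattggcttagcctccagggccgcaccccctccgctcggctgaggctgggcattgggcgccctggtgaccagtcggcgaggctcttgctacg

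The genes with and without a core had similar medians in the comparison of the groups. With scaled values the median log2 fold change was -0.34 for the 24 tested members with an ETS core and -0.41 for the 41 without. It was -0.42 for the 13 with an NRF1 core and -0.36 for the 52 without, and -0.35 for the 12 with a YY1 core and -0.41 for the 53 without. These are descriptions without a test.

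A divergent protein-coding gene started within 1000 bases upstream for 18 of the 78 genes (23.1%), against 818 of 7565 tested protein-coding genes (10.8%). Mrpl54 starts 26 bases from Apba3, Mrps18b 45 bases from Ppp1r10, and Mrps12 172 bases from Sars2, the mitochondrial seryl-tRNA synthetase. Exons of 27 members overlapped a gene on the opposite strand, among them Mrpl43 with the mitochondrial helicase gene Twnk, and Mrpl46 with Mrps11, another member. The sources used here do not give whether counting used strand, so reads of such pairs may not be separable. Mrpl53 shared 84.4% of its 31-base words with the overlapping gene Gm42688 on the same strand, and its values are uncertain.

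The comparison asked which of these transcripts differ between DEN+CCl4 and control liver, and no member passed the test. At an adjusted p of 0.05 in limma over 8528 genes, 0 members were higher and 0 were lower, against 0.833% and 0.645% of all tested genes (71 and 55 genes). The smallest adjusted p of a member was 0.789 (Mrpl27). At an unadjusted p of 0.05, 0 members were lower, against 5.07% of all tested genes, and 0 were higher, against 2.53%. With scaled values limma again called 0 members, and 0 genes of all tested, with 1 member at an unadjusted p of 0.05 (Mrpl41, lower, unadjusted p = 0.0425, adjusted p = 0.443) against 6.74% of all tested genes on the lower side and 4.39% on the higher. Limma with array weights, which let the libraries count unequally, called Mrpl53 higher (log2 fold change 1.00, adjusted p = 0.0151) and Mrpl48 lower (-0.59, adjusted p = 0.0489). That fit called 3.37% of all tested genes higher and 1.57% lower, so 1 of 73 members in each direction is not above the background.

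The direction was nearly uniform all the same. The log2 fold change was negative for 72 of the 73 tested members, against 74.4% of all tested genes, and for 69 of 73 with scaled values, against 59.8%. This was not particular to the members. It was negative for all 36 nuclear subunits of respiratory complex I on both scales. Of 60 other tested genes of mitochondrial translation it was negative for 55, or 50 scaled. Of 78 cytosolic ribosomal protein genes it was negative for 58, or 27 scaled. Relative to the median of all tested genes, the member median was -0.34 as deposited and -0.30 with scaled values. With the 5 genes below the filter included, the median as deposited was -0.55. Single libraries weighed on this. Without DEN+CCl4 replicate 3 the member median as deposited was -0.19, though it stayed -0.31 relative to all tested genes. The relative median was -0.19 without DEN+CCl4 replicate 2 and -0.22 without control replicate 1 or 3. With scaled values it was -0.11 without DEN+CCl4 replicate 2, -0.16 without control replicate 1, -0.17 without control replicate 3 and -0.45 without control replicate 2. Large and small subunit genes had similar medians, of -0.64 and -0.54 as deposited and of -0.43 and -0.34 with scaled values. Structures place the products of Mrps18a and Mrps30 in the large subunit. Mrps30 was below the filter, so only Mrps18a moved between the medians. With Mrps36 also left out, the medians as deposited were -0.64 for 47 large and -0.54 for 25 small subunit genes.

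The median hides a pattern by library in which a control stands with the treated livers. Against the mean of the 3 controls, the median member deviated by 0.20, -0.41 and 0.19 (log2, scaled values) in control replicates 1, 2 and 3. In DEN+CCl4 replicates 1, 2 and 3 it deviated by -0.14, -0.58 and -0.32. The corresponding medians of all tested genes were 0.01, -0.01 and 0.03 in the controls and -0.03, -0.10 and -0.23 in DEN+CCl4 liver. Control replicate 2 thus read low for these genes without reading low across all genes, and lower than DEN+CCl4 replicates 1 and 3 by the member median. It was the lowest of the 3 controls for 66 of the 78 genes (84.6%), against 43.7% of all tested genes. As deposited the member deviations were 0.17, -0.40 and 0.23 in the controls and -0.04, -0.37 and -1.30 in DEN+CCl4 liver, where the deviation of all tested genes in replicate 3 was -1.06.

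**Figure D2:**
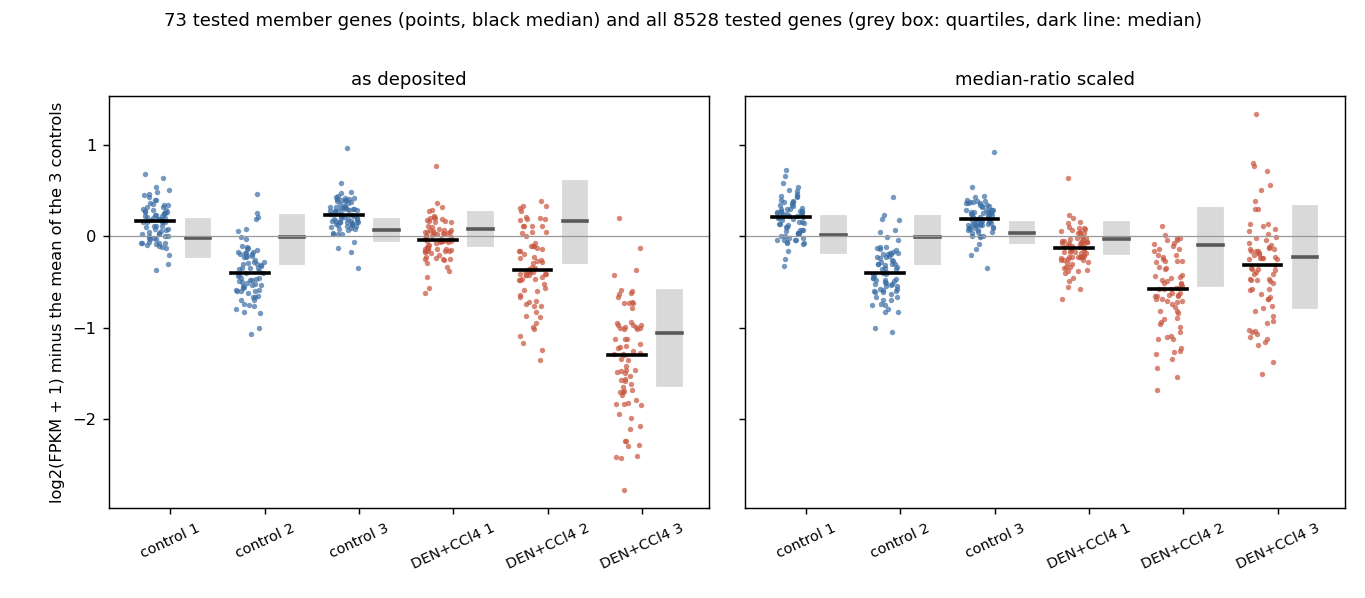
Each of the 73 tested members (points, black line at their median) as its log2(FPKM + 1) minus the mean of the 3 controls, by library, as deposited (left) and scaled (right), beside all 8528 tested genes (grey box for quartiles, dark line for the median). With scaled values the members lie low in control replicate 2 (-0.41) and DEN+CCl4 replicate 2 (-0.58), where the medians of all genes are -0.01 and -0.10.

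Which treated library was lowest depended on the scale. As deposited, DEN+CCl4 replicate 3 was the lowest of the 6 libraries for 74 of the 78 genes (94.9%), against 82.6% of all tested genes. With scaled values DEN+CCl4 replicate 2 was the lowest for 40 (51.3%, against 17.9%), replicate 3 for 18 (23.1%, against 38.7%) and control replicate 2 for 16 (20.5%, against 15.4%). Below all 3 controls on the scaled values lay 11 genes in DEN+CCl4 replicate 1 (14.1%, against 19.9% of all tested genes), 53 in replicate 2 (67.9%, against 38.2%) and 34 in replicate 3 (43.6%, against 47.3%). The share of members was thus above that of all genes in replicate 2 and below it in the other 2. Replicate 3 read above all controls for 9 (11.5%, against 27.8%): Mrps15, Mrpl53, Mrps12, Mrpl48, Mrpl44, Mrps18c, Mrps6, Mrpl32 and Mrps30, a list taken after the values were seen.

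The members varied together across libraries, as a description over only 6 points that share their libraries and scaling. The median Pearson r between pairs of tested members on scaled log2 values was 0.69 (2628 pairs), and 44 of the 73 correlated with the median profile at over 0.8. Mrpl28 and Mrps34 were closest to it (r of 0.998 and 0.997), and Mrpl53 (r = -0.52) and Mrps26 (r = -0.20) ran against it. Across members, the scaled log2 fold change had an r of -0.43 with log2 level and 0.17 with log2 exon length, so the more abundant genes tended to have the more negative values, on a scale that compresses the changes of low genes.

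The order of the libraries by the sum over all 78 genes also depended on the scale. In control replicates 1, 2 and 3 it was 798, 517 and 885 FPKM, and in DEN+CCl4 replicates 1, 2 and 3 it was 705, 523 and 195. Control replicate 2 and DEN+CCl4 replicate 2 were nearly equal, and DEN+CCl4 replicate 3 stood lowest. With scaled values the sums were 728, 453 and 762 in the controls and 566, 359 and 466 in DEN+CCl4 liver. There DEN+CCl4 replicate 2 stood lowest. As a share of the FPKM outside mitochondrially encoded genes the sum was 0.156%, 0.125% and 0.195% in the controls and 0.163%, 0.135% and 0.0512% in DEN+CCl4 liver. With the nuclear copies also taken out, the shares were 0.185%, 0.188% and 0.248% against 0.215%, 0.185% and 0.122%, where control replicate 2 no longer stood below control replicate 1. DEN+CCl4 replicate 3 was then the lowest library, and the other 2 treated libraries lay within the control range or at its edge. The large subunit genes summed to 2.41 to 2.85 times the small subunit genes in the controls and to 2.80, 2.59 and 2.14 times in DEN+CCl4 replicates 1, 2 and 3.

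The most negative differences belonged to abundant large subunit genes with bacterial counterparts. Mrpl14 (chr17:45686322-45698495, GRCm38), the counterpart of bacterial L14 at the contact between the subunits, read 45.8, 23.4 and 42.6 FPKM in the controls, against 38.8, 13.4 and 4.40 in DEN+CCl4 liver. DEN+CCl4 replicate 1 lay among the controls and the other 2 treated libraries lay below them, so the groups overlapped. Its log2 fold change was -1.34 (SE 0.86, limma adjusted p = 0.879), and -1.07 (SE 0.54, adjusted p = 0.484) with scaled values. Mrpl27, whose bacterial counterpart reaches towards the peptidyl transferase centre, read 28.4, 9.96 and 18.3 FPKM in the controls, against 13.5, 6.76 and 2.77 in DEN+CCl4 liver. Here too control replicate 2 was low, below DEN+CCl4 replicate 1. The log2 fold change was -1.29 (SE 0.75, limma adjusted p = 0.789), and -1.03 (SE 0.47, adjusted p = 0.456) scaled. Mrpl34, the counterpart of bacterial L34, read 21.2, 9.96 and 27.4 FPKM in the controls, against 14.9, 8.83 and 3.04 in DEN+CCl4 liver. Control replicate 2 again lay below DEN+CCl4 replicate 1, with a log2 fold change of -1.15 (SE 0.76, limma adjusted p = 0.903), or -0.89 scaled. Mrps7, counterpart of the bacterial S7 that organises the head of the small subunit, was the most negative of the small subunit as deposited, with 27.5, 20.1 and 31.5 FPKM in the controls and 24.1, 14.8 and 4.08 in DEN+CCl4 liver. Only DEN+CCl4 replicate 1 overlapped the controls, and the log2 fold change was -1.09 (SE 0.82, limma adjusted p = 0.964), or -0.83 scaled.

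The groups did not overlap on either scale for Mrpl41 and Mrpl39, both subunits found only in mitochondria. Mrpl41 (chr2:24974117-24975098, GRCm38) read 13.5, 10.02 and 14.5 FPKM in the controls, against 8.96, 8.02 and 2.78 in DEN+CCl4 liver (means 12.7 ± 2.37 and 6.59 ± 3.33, SD, n = 3). With scaled values it read 12.3, 8.78 and 12.5 against 7.20, 5.496 and 6.64, so that all treated libraries lay below the lowest control with little spread among them. The log2 fold change was -0.96 (SE 0.71, limma adjusted p = 0.956), and -0.70 (SE 0.29, adjusted p = 0.443) scaled. Mrpl39 read 8.10, 8.67 and 10.04 FPKM in the controls, against 7.69, 6.78 and 2.70 in DEN+CCl4 liver, with a log2 fold change of -0.65 (SE 0.67, limma adjusted p = 0.996), or -0.40 scaled. For this gene control replicate 1, and not 2, was the lowest control. In all, the treated values lay wholly below the controls for 2 of the 73 tested members as deposited, against 5.35% of all tested genes, and wholly above for 0, against 3.01%. With scaled values they lay below for 5, against 8.68%, and above for 0, against 5.95%. The other 3 were Mrpl45, the subunit that tethers the ribosome to the inner membrane, Mrps2 and Mrps35. A share near that of all tested genes is not particular to the members.

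**Figure D3:**
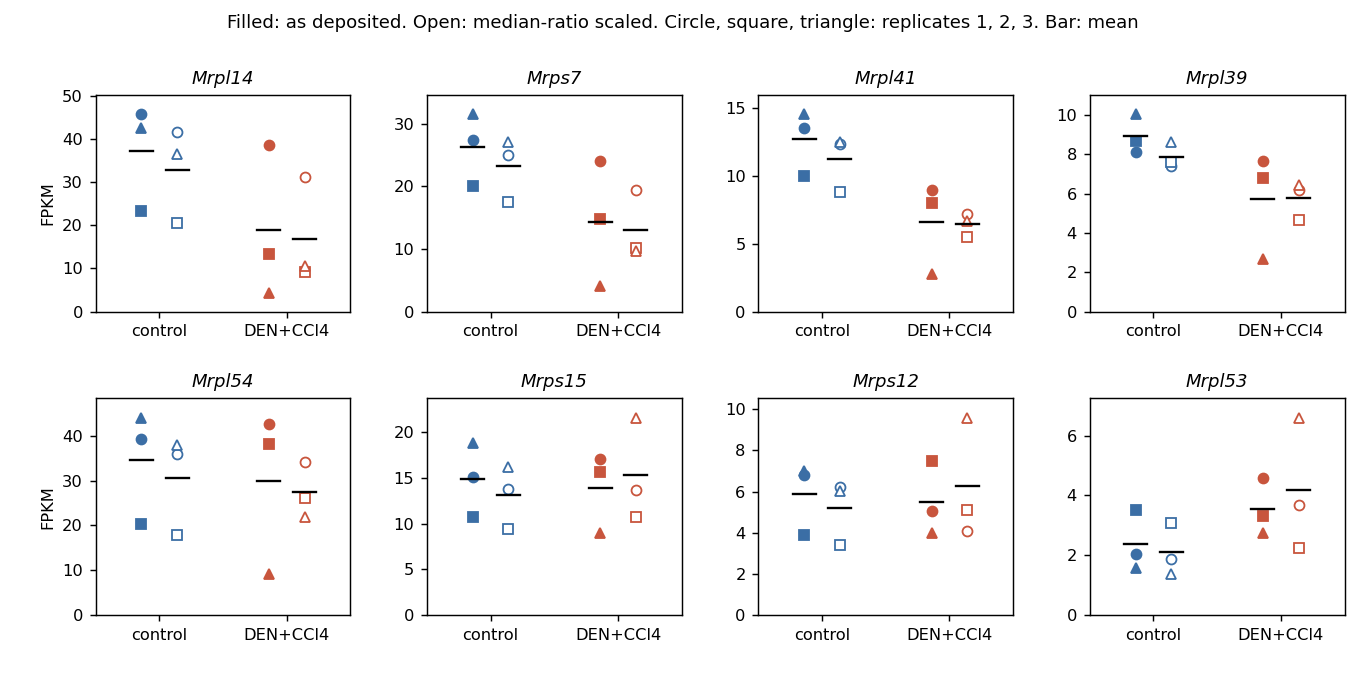
FPKM of 8 members in each library (circle, square and triangle for replicates 1, 2 and 3; control blue, DEN+CCl4 red), as deposited (filled) and scaled (open), with the mean of 3 as a bar. The treated libraries lie below all controls for Mrpl41 and Mrpl39, while Mrps15, Mrps12 and Mrpl53 read highest in scaled DEN+CCl4 replicate 3.

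At the other end, Mrpl53, Mrps12 and Mrps15 had the highest log2 fold changes. Mrpl53, a subunit found only in mitochondria, was the only tested member with a positive one as deposited, with 2.04, 3.51 and 1.59 FPKM in the controls and 4.6, 3.30 and 2.76 in DEN+CCl4 liver. Control replicate 2 lay among the treated libraries, and the log2 fold change was 0.45 (SE 0.53, limma adjusted p = 0.996), or 0.69 (SE 0.36, adjusted p = 0.493) scaled. Mrps12, the counterpart of the bacterial decoding-centre protein S12, read 6.82, 3.90 and 6.98 FPKM in the controls, against 5.07, 7.47 and 4.01 in DEN+CCl4 liver. DEN+CCl4 replicate 2 was the highest of all 6 libraries and the groups overlapped, with a log2 fold change of -0.08 (SE 0.63, limma adjusted p = 0.996) that turned to 0.19 (SE 0.37, adjusted p = 0.876) with scaled values. Mrps15, the counterpart of bacterial S15, read 15.1, 10.7 and 18.8 FPKM in the controls, against 17.1, 15.7 and 9.03 in DEN+CCl4 liver. Its log2 fold change of -0.10 (SE 0.79, limma adjusted p = 0.996) likewise turned to 0.19 (SE 0.38, adjusted p = 0.879).

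Members with particular roles did not all vary alike. Mrpl12, the counterpart of the bacterial L7/L12 stalk protein, which also binds the mitochondrial RNA polymerase, read 32.1, 17.2 and 28.8 FPKM in the controls, against 23.4, 16.6 and 7.86 in DEN+CCl4 liver. DEN+CCl4 replicate 2 lay just below the low control replicate 2, and the log2 fold change was -0.75 (SE 0.84, limma adjusted p = 0.996), or -0.46 scaled. Mammals have 3 forms of the S18 protein, whose genes had mean levels of 8.46 FPKM (Mrps18b), 3.52 (Mrps18c) and 2.30 (Mrps18a). Mrps18b read 11.3, 5.98 and 13 FPKM in the controls, against 7.16, 9.99 and 3.36 in DEN+CCl4 liver. Mrps18c read 4.43, 2.31 and 5.41 against 3.60, 3.14 and 2.21, and Mrps18a 3.37, 1.74 and 3.12 against 2.75, 1.98 and 0.81. In each of the 3 the groups overlapped, and the log2 fold changes were -0.54 (SE 0.69) for Mrps18b, -0.30 (SE 0.56) for Mrps18c and -0.43 (SE 0.49) for Mrps18a, each with a limma adjusted p of 0.996. With scaled values they were -0.28, -0.05 and -0.26. Mrps30 was below the filter, with 1.20, 0.87 and 1.23 FPKM in the controls and 1.04, 0.74 and 0.48 in DEN+CCl4 liver. Mrps36, now regarded as a component of the 2-oxoglutarate dehydrogenase complex and not of the ribosome, had a profile close to the member median (r = 0.97), with 6.92, 2.72 and 7.32 FPKM in the controls and 5.46, 3.58 and 1.27 in DEN+CCl4 liver (log2 fold change -0.62, SE 0.59, limma adjusted p = 0.996, or -0.42 scaled).

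The precision of 3 against 3 libraries left room for sizeable differences downward, and less so upward. As deposited, the 95% limma interval of the log2 fold change included 0 for all 73 tested members, with a median half-width of 1.24. With scaled values it included 0 for 72, the exception being Mrpl41, and the median half-width was 0.76 (0.44 to 1.36). A log2 fold change of 1 lay above the interval for 70 of the 73 members scaled and 65 as deposited. A value of -1 lay below it for only 27 and 2. On the log2(FPKM + 1) scale these values stand for more than a doubling or halving of FPKM, most of all for low genes. A change of 1 log2 unit downward could thus not be told from no change for most of the genes.

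**Figure D4:**
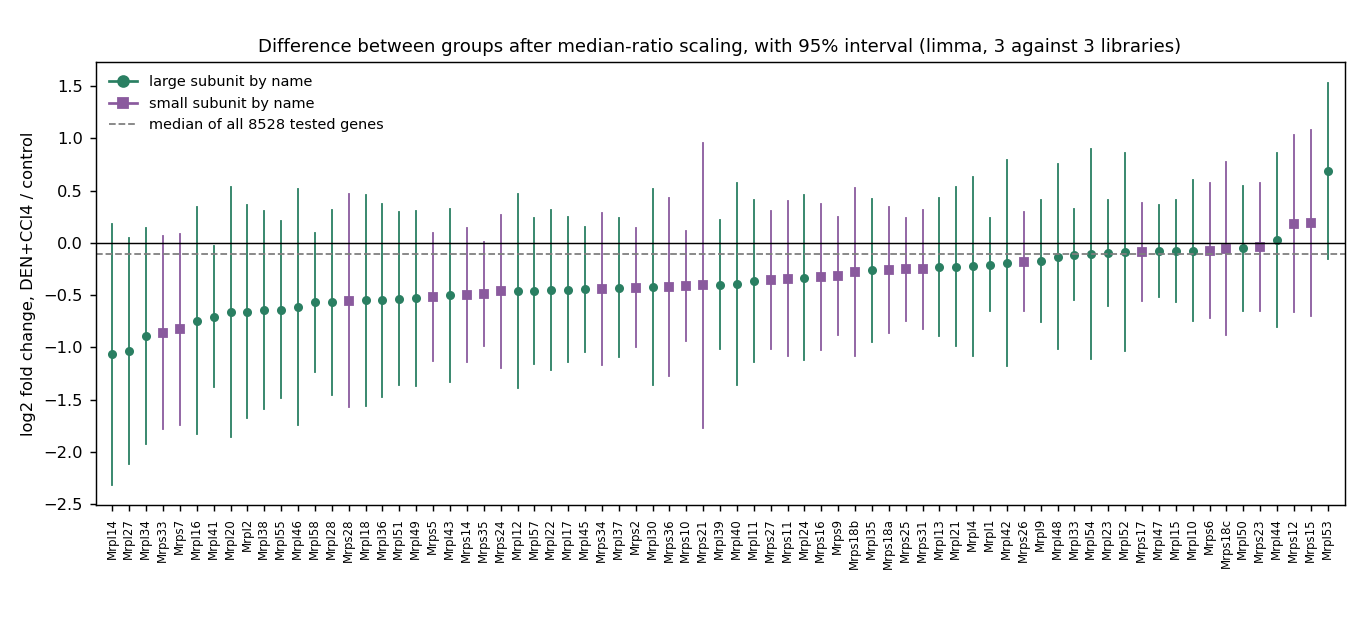
Log2 fold change of each tested member with scaled values, with its 95% limma interval, ordered by size, large subunit (green circles) and small subunit (purple squares), beside the median of all 8528 tested genes (dashed line, -0.10). The interval of 1 gene, Mrpl41, lies wholly below 0.

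The other genes of mitochondrial translation had a less negative median log2 fold change (-0.33, or -0.21 scaled), and again none passed the test. There were 86 such genes, of which 60 were tested, at a median level of 2.23 FPKM against 5.61 for the tested members. The log2(FPKM + 1) scale understates changes of low genes, so these medians do not compare like with like. Of the 60, 0 were called in either direction by limma on either scale, and 0 had an unadjusted p under 0.05. Their smallest adjusted p was 0.934 as deposited and 0.469 with scaled values. The 5 ribosome subunits with other names, Dap3, Ptcd3, Chchd1, Aurkaip1 and Gadd45gip1, had a median log2 fold change of -0.58 (-0.47 scaled), near that of the members. Gadd45gip1, at the highest level of them, read 25.8, 26.3 and 29.9 FPKM in the controls, against 31.2, 27.1 and 4.48 in DEN+CCl4 liver. Only the last library stood apart as deposited, while with scaled values DEN+CCl4 replicate 2 also lay below the controls. Aurkaip1 read 28.5, 9.21 and 17.5 against 13.8, 14.5 and 6.80, with control replicate 2 low, but the median of the 5 deviated by only -0.06 (scaled) in that library.

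Assembly factors (26 in the table, 18 tested) had a median log2 fold change of -0.26 (-0.15 scaled). Rbfa, a maturation factor of the small subunit, read 20.3, 17.4 and 22.4 FPKM in the controls, against 18.5, 19.8 and 5.60 in DEN+CCl4 liver. As deposited, 2 treated libraries thus lay within the range of the controls. With scaled values every treated library lay below the controls. This held for 1 of the 18 tested factors (5.56%), against 8.68% of all tested genes. C1qbp read 12.3, 5.98 and 12.3 against 9.89, 4.50 and 1.78, with control replicate 2 again below DEN+CCl4 replicate 1. Translation factors (14 in the table, 11 tested) had a median of -0.36 (-0.22 scaled). Among them Oxa1l, which inserts new proteins into the inner membrane, read 10.4, 7.93 and 11.4 FPKM in the controls, against 10.2, 7.46 and 1.71 in DEN+CCl4 liver. The elongation factor Tufm read 8.80, 4.36 and 7.22 against 6.41, 6.56 and 2.14, and the groups overlapped for both.

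Mitochondrial aminoacyl-tRNA synthetases and tRNA amidation enzymes (20 in the table, 11 tested) had a median log2 fold change of -0.31 (-0.12 scaled), close to that of all tested genes. Aars2, the alanyl-tRNA synthetase, read 5.57, 9.80 and 7.94 FPKM in the controls, against 7.35, 8.14 and 2.23 in DEN+CCl4 liver, with control replicate 2 the highest of all. Gatc, part of the amidation complex, read 6.72, 4.83 and 7.12 against 7.25, 4.59 and 1.04. Genes of mitochondrial transcription and mRNA stability (12 in the table, 9 tested) had a median of -0.36 (-0.25 scaled). Polrmt, the mitochondrial RNA polymerase, read 3.99, 6.91 and 6.17 FPKM in the controls, against 7.02, 7.72 and 1.18 in DEN+CCl4 liver, and Twnk 3.73, 5.46 and 4.50 against 4.84, 8.47 and 0.43. For both, 2 treated libraries lay at or above most of the controls and the third lay below them.

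The factors that bind the NRF1, ETS and YY1 motifs were measured at low levels. Nrf1 read 0.15 to 0.35 FPKM in the 6 libraries and was not tested. Gabpa read 1.06, 1.55 and 1.4 FPKM in the controls, against 1.44, 1.78 and 0.36 in DEN+CCl4 liver, and Yy1 2.85, 2.55 and 3.12 against 3.15, 3.88 and 1.05. The wider list of 9 upstream regulators of nuclear mitochondrial genes, which also holds Esrra and Myc, had 6 tested, with a median log2 fold change of -0.16 (-0.08 scaled). Esrra, a nuclear receptor of mitochondrial genes, had the highest level of the list, with 12.98, 18.1 and 18.9 against 17.1, 18.7 and 3.79 FPKM. Myc, a growth regulator that also drives mitochondrial genes, read 2.17, 3.64 and 3.24 FPKM in the controls, against 3.75, 5.28 and 0.47 in DEN+CCl4 liver. In all 4 of these tested regulators DEN+CCl4 replicate 3 was the lowest library as deposited, as it was for 82.6% of all tested genes.

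The RNAs of the same ribosome did not follow the transcripts of its protein genes. The small subunit RNA mt-Rnr1 read 2806, 2722 and 1331 FPKM in the controls, against 1098, 3984 and 5895 in DEN+CCl4 liver. The large subunit RNA mt-Rnr2 read 1423, 1345 and 659 against 511, 1970 and 4025. DEN+CCl4 replicate 3 was the highest and replicate 1 the lowest library for both, the reverse of replicate 3's place for the protein genes as deposited. Mitochondrially encoded transcripts took 64.2% of the FPKM in that replicate 3. FPKM is relative to the library total, so the 2 places are not independent. Their log2 fold changes were 0.45 (SE 0.91) and 0.56 (SE 0.98), with a limma adjusted p of 0.996 for each. With scaled values they were 0.76 (SE 1.05, limma adjusted p = 0.812) and 0.87 (SE 1.13, adjusted p = 0.798). Poly(A) selection was used, so their levels also depend on how far these RNAs were captured, which was not tested.

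By median log2 fold change the members lay between 2 sets of like genes, on a scale that understates changes of low genes. Tested members had a median level of 5.61 FPKM, cytosolic ribosomal proteins 36.3 and nuclear subunits of complex I 29.9. The 78 tested cytosolic ribosomal protein genes (of 80) had a median log2 fold change of -0.19, or 0.11 with scaled values, and the 36 nuclear subunits of respiratory complex I one of -1.13, or -0.85 scaled. Limma called 0 genes of either set, with 1 in each at an unadjusted p under 0.05 as deposited. All 3 sets read low in control replicate 2, with scaled median deviations of -0.41 for the members, -0.58 for the cytosolic ribosomal proteins and -0.46 for complex I. They parted in DEN+CCl4 replicate 3, at -0.32 for the members, 0.62 for the cytosolic ribosomal proteins and -1.36 for complex I. In DEN+CCl4 replicate 2 the deviations were -0.58, -0.36 and -1.15. The 5 ribosome subunits with other names, the assembly factors, translation factors and synthetases showed no such dip in control replicate 2, at -0.06, 0.02, -0.06 and 0.06. The differences between these sets, which differ in level, were not tested.

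**Figure D5:**
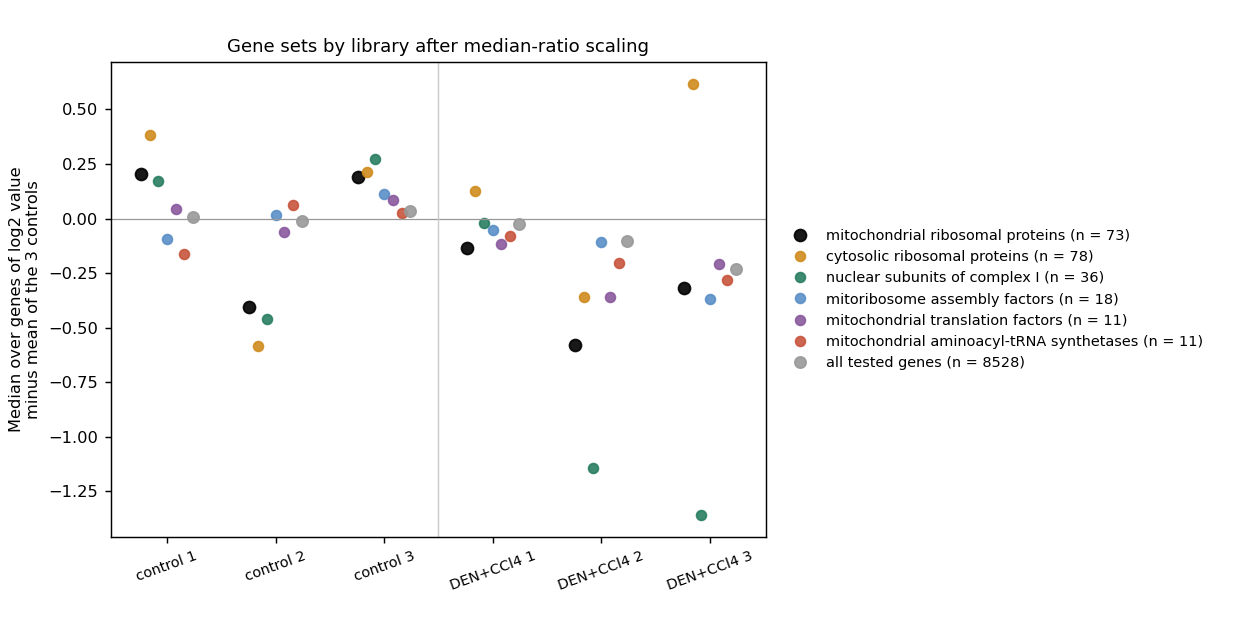
Median over the tested genes of each set of the scaled log2 value minus the mean of the 3 controls, by library. In control replicate 2 the mitochondrial ribosomal proteins (-0.41), cytosolic ribosomal proteins (-0.58) and complex I subunits (-0.46) lie below the other sets, and in DEN+CCl4 replicate 3 they lie at -0.32, 0.62 and -1.36.

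Of the summed markers of other liver cells, those of leukocytes and of stellate cells and fibroblasts did not overlap between the groups, and the other 3 sums did. The summed scaled level of 11 leukocyte markers was 5.70 to 8.12 in the controls and 9.29 to 60.9 in DEN+CCl4 liver. Of the 4 tested, 1, S100a8, was higher as deposited (log2 fold change 1.63, limma adjusted p = 0.0336), against 0.833% of all tested genes. It was not called with scaled values (1.90, limma adjusted p = 0.443), where limma called 0 of all tested genes. S100a8 and S100a9, genes of neutrophils, made up 51.0 of the 60.9 in DEN+CCl4 replicate 3. The other 9 summed to 4.03 to 5.42 in the controls and 5.70 to 9.86 in DEN+CCl4 liver. The T cell genes were low: Cd3e and Cd4 read at most 0.50 FPKM in any library, Cd3g 0.14 to 0.24 in the controls and 0.26 to 0.53 in DEN+CCl4 liver, and Cd8a 0.04 to 0.18 against 0.49 to 0.91. Of the B cell genes, Cd79a read 1.98 to 3.03 FPKM in the controls and 3.39, 3.18 and 0.33 in DEN+CCl4 liver, and Ms4a1 was listed at 0 in control replicate 1 and DEN+CCl4 replicate 3. The scaled sum of 10 stellate cell and fibroblast markers was 8.19 to 12.2 in the controls and 18.0 to 38.1 in DEN+CCl4 liver, with 0 of the 6 tested called by limma. At an unadjusted limma p under 0.05, 3 of the 6 were higher as deposited, against 2.53% of all tested genes, and 4 with scaled values, against 4.39%. The sum of 10 macrophage markers overlapped between the groups, at 36.4 to 108 and 30.1 to 96.9, as did that of 9 endothelial markers, at 17.9 to 29.2 and 26.5 to 34.0. The sum of 6 cholangiocyte markers was 7.97 to 15.1 against 11.8 to 60.7, of which Spp1 made up most, while Epcam and Cldn7 were listed at 0 in DEN+CCl4 replicate 3. The 12 hepatocyte markers summed to 40430 to 64136 in the controls and 38687 to 51281 in DEN+CCl4 liver, sums made mostly of Alb, Apoa1 and Apoa2. Limma called 0 of the 12. At an unadjusted p under 0.05, 3 were lower as deposited, against 5.07% of all tested genes, and 1 (Cps1) with scaled values, against 6.74%. The 3 were Apoa2 (log2 fold change -2.10), Ass1 (-2.22) and Tat (-2.36), with limma adjusted p of 0.223, 0.578 and 0.493. The part of these cells in the levels of the members was not tested.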

How the data were processed

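The authors deposited FPKM values with 2 decimals, 1 column per library, per the file headers. HISAT, StringTie and GRCm38 are named in the submitters' processing notes. For versions, annotation and strand the entry is: not given in the sources used here. Per the labels' protocols, libraries were made from poly(A) RNA purified from 5 ug of total RNA (RIN above 7) with a SMARTER mRNA-Seq kit.

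The groups were taken from the labels. The test was limma 3.58.1 in R 4.3.3 (two-sided, intensity trend in the empirical Bayes step, no covariates) on log2(FPKM + 1) for genes averaging 1 FPKM or more, with Benjamini-Hochberg adjustment over all 8528 at a threshold of 0.05. With 3 libraries against 3 an exact permutation test of a single value cannot give a p below 0.1. Low values showed no common step worth 1 read (best fit 28.5% to 30.6% of values, against 20% by chance), so read numbers could not be recovered and depth is unknown. The fit was also run on simulated data with independent noise for each gene and no shift of whole libraries. That run cannot show how the fit behaves where a whole library is shifted, as here. Summaries and figures used Python 3.11.15, numpy 2.4.6, pandas 2.3.3 and matplotlib 3.10.9.

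Chromosomes, exon lengths and neighbours came from GENCODE M21 (GRCm38), which held 25051 of the 25102 gene identifiers and all 78 members. No pair of libraries had identical values.

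The members, lists, motifs and tests were chosen with earlier results of these data known. Genes were named by a rule: the 3 most positive and 3 most negative differences, the 3 highest means of each subunit, members without overlap between groups on both scales, 6 members by role, and, of each pathway list, the 2 highest means. Genes printed outside it were chosen after their values were seen. The level of 1 leukocyte marker is not reported here. Alternatives were other pseudocounts (0.1 and 0.01), filters, scalings and variance models, the replicate number as a block and each library left out. Leaving out mitochondrial genes with their nuclear copies, and scaling together with the block, were added after seeing the data.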

Additional observations from a re-analysis of the deposited data

How the results depend on the processing

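The count of 0 members called in each direction held under every alternative run except array weights, with 1 higher (Mrpl53) and 1 lower (Mrpl48). The member median stayed negative in all 26 alternatives (-0.85 to -0.19), as did its difference from the median of all tested genes in all 25 (-0.54 to -0.11). Counts over all tested genes moved more. As against 71 higher and 55 lower, they were 6 and 3 with a pseudocount of 0.1, 4 and 0 with 0.01, and 31 and 27 as TPM. They were 6 and 3 without mitochondrially encoded genes, 287 and 134 with array weights, and 14 higher with a filter at 5 FPKM. Both were 0 without a filter, with median-ratio scaling, with quantile normalization, without the trend, and without mitochondrial genes and their copies. Leaving out 1 library in turn, with or without scaling, gave 0 to 233 higher and 0 to 438 lower. The cause was not tested.

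Same-numbered libraries deviated together with r of 0.072, 0.42 and -0.15, and differently numbered ones with r of -0.37 to 0.23. The libraries numbered 2 had the highest r. These values cannot decide whether libraries with the same number are paired. With the replicate number as a block 62 genes were higher and 32 lower, and with scaling and the block 0 in each direction. No member was called in either of these fits.

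Differences near 0 changed sign. With median-ratio scaling, also with the block, Mrps12 and Mrps15 stood at 0.19 each. Without mitochondrially encoded genes they stood at 0.092 and 0.083, and with the nuclear copies also left out at 0.39 and 0.38, beside Mrpl54 at 0.087 and Mrps18c at 0.11. With quantile normalization Mrps12 was 0.35, Mrps15 0.52, Mrpl54 0.38 and Mrps18c 0.040. With 1 library left out, scaled or not, the range was -0.77 to 0.29 for Mrpl54, -0.31 to 0.40 for Mrps12, -0.30 to 0.40 for Mrps15, -0.58 to 0.16 for Mrps18c and -1.12 to 0.041 for Mrps21. The cause was not tested. In the 250 bases before the start alone, the ETS core was in 24.0% of member promoters (14.2% of those of tested genes), the short YY1 core in 8.0% (4.45%) and the long form in 1.33% (0.576%). Depth per library is unknown, so no counting error could be given.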
